A study of Mus musculus with 6 samples.

Results

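The myeloid C-type lectin receptors described here are 10 genes (Mgl2, Clec10a, Clec4n, Clec7a, Clec4d, Clec4e, Clec5a, Clec12a, Clec4a1 and Clec4a3), picked by symbol from the 16775 genes of the count table. All 10 had a row and all 10 passed the filter on low counts that left 12619 genes for testing. The cells were osteoclasts, the bone-resorbing multinucleated cells, grown from marrow macrophages of WT mice. In verapamil cultures (3 libraries) and control cultures (2 libraries, replicates 1 and 3) alike, M-CSF at 30 ng/ml and RANKL at 50 ng/ml drove differentiation in α-MEM with 10% FBS and antibiotics. Verapamil, a blocker of L-type calcium channels, was the added agent in the treated cultures, and the labels give neither its concentration nor its exposure time. Sample titles name day 5, while the protocol runs to day 7. Control replicate 2 was not analysed here. Nothing in the labels ties replicates to separate mice or cultures, so the p-values below reflect the spread between these libraries, which may be technical.

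C-type lectin receptors are membrane proteins of macrophages, dendritic cells and neutrophils that bind sugars and lipids of microbes or of damaged cells through a shared lectin fold. Activating members reach the kinase Syk and the adaptor Card9 either through a tyrosine motif in their own tail or through the partner chains FcRγ (Fcer1g) and DAP12 (Tyrobp). The same partner chains carry the costimulatory signal that osteoclast precursors need beside RANKL. Inhibitory members recruit the phosphatases SHP-1 (Ptpn6) and SHP-2 (Ptpn11).

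Verapamil-treated osteoclasts had less mRNA of both galactose-binding receptors and of 3 receptors outside the activating group, and more of 3 activating receptors. The other activating receptors, Clec4n and Clec4d, were not called at the threshold given next. In edgeR's quasi-likelihood test 3 of the 10 members were higher and 5 lower at a Benjamini-Hochberg adjusted p under 0.05, against 9.99% of all tested genes higher and 15.4% lower (25.4% in either direction). The members' median log2 fold change was -0.63, beside -0.01 for all tested genes. Values per library did not overlap between groups for 9 members, as for 56.7% of all tested genes. Clec4d was the exception. With upper quartile factors in place of TMM, the share of higher genes among all calls was 28.2% (39.4% with TMM) and the members' calls were the same 3 and 5. Values are CPM (reads of a gene relative to its library's total, after TMM scaling), and log2 fold changes are verapamil over control, with standard errors (SE) derived from the test.

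**Figure D1:**
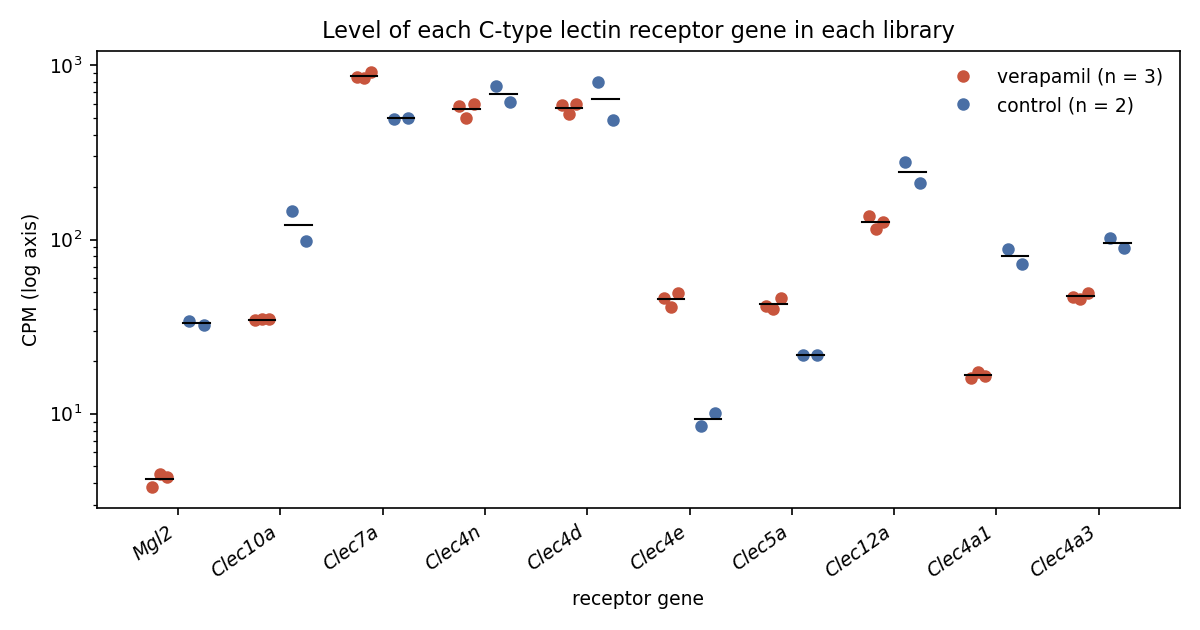
CPM (log axis) of the 10 receptor genes, with 1 point for each library, verapamil (3) left of control (2), and a black line at each mean. Mgl2, Clec10a, Clec12a, Clec4a1 and Clec4a3 sit lower with verapamil, Clec7a, Clec4e and Clec5a sit higher, and the points of Clec4d overlap.

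Mgl2 and Clec10a encode the macrophage galactose-type lectins MGL2 (CD301b) and MGL1 (CD301a), which bind terminal galactose or N-acetylgalactosamine and mark alternatively activated macrophages and some dendritic cells. Mgl2 had 3.79, 4.49 and 4.34 CPM in verapamil replicates 1, 2 and 3, against 34.0 and 32.4 CPM in control replicates 1 and 3. The control values lay close together and far above every treated value. It fell by 2.98 on the log2 scale, with an SE of 0.124 (edgeR adjusted p = 0.000407), the largest fall among the members. Clec10a had 34.4, 34.7 and 34.8 CPM in verapamil replicates 1, 2 and 3, against 144.9 and 98.2 CPM in control replicates 1 and 3. The treated libraries were nearly equal for this gene, and the controls differed from each other but not enough to reach them. Clec10a fell by 1.81 on the log2 scale (SE 0.169, edgeR adjusted p = 0.00126). These paralogs are similar in sequence: 13.1% of the 50-base stretches of Mgl2 transcripts occur in transcripts of other genes and 9.02% of those of Clec10a, in each case mostly in the other of the pair. Because no source used here names the counting method, some reads could have been assigned to the wrong paralog.

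Clec7a encodes Dectin-1, the receptor for fungal β-glucan, which signals through a tyrosine motif in its own tail. It had 852, 840 and 921 CPM in verapamil replicates 1, 2 and 3, against 489 and 501 CPM in control replicates 1 and 3. Every treated library exceeded both controls. The rise was 0.81 on the log2 scale (SE 0.0957, edgeR adjusted p = 0.00255), on a gene that ranked 128 of 12619 by mean CPM.

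Clec4n, Clec4d and Clec4e encode Dectin-2, MCL and Mincle, which signal through FcRγ. Dectin-2 binds α-mannans, and MCL and Mincle bind the mycobacterial glycolipid trehalose dimycolate, Mincle also a ribonucleoprotein released by dying cells. Clec4e had 46.2, 41.2 and 49.6 CPM in verapamil replicates 1, 2 and 3, against 8.45 and 10.2 CPM in control replicates 1 and 3. All treated libraries were well above both controls. The log2 fold change was 2.29 (SE 0.152, edgeR adjusted p = 0.000543), the largest rise among the members. Clec4n had 583, 498 and 596 CPM in verapamil replicates 1, 2 and 3, against 764 and 612 CPM in control replicates 1 and 3. The highest treated library came close to control replicate 3, and the log2 fold change of -0.30 did not pass (SE 0.138, edgeR adjusted p = 0.158). Clec4d had 593, 525 and 597 CPM in verapamil replicates 1, 2 and 3, against 803 and 482 CPM in control replicates 1 and 3. The treated libraries lay between the controls, and the log2 fold change was -0.17, with an SE of 0.213 (edgeR adjusted p = 0.576). Both non-passing values depended on which control was used. Without control replicate 3, Clec4n was at -0.45 (adjusted p = 0.00448) and Clec4d at -0.49 (adjusted p = 0.00128), and without control replicate 1 Clec4d was at 0.25 (adjusted p = 0.0567). With 1 control left, those fits hold no spread between controls.

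Clec5a encodes MDL-1, a receptor that pairs with DAP12. It had 41.8, 40.0 and 46.3 CPM in verapamil replicates 1, 2 and 3, against 21.9 and 21.7 CPM in control replicates 1 and 3. The controls were nearly equal and every treated library was above them. Clec5a rose by 0.97 on the log2 scale (SE 0.116, edgeR adjusted p = 0.00272).

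Clec12a encodes MICL, an inhibitory receptor that senses uric acid crystals of dead cells. It had 137, 115 and 125 CPM in verapamil replicates 1, 2 and 3, against 278 and 212 CPM in control replicates 1 and 3. All treated libraries were below both controls. Clec12a fell by 0.96 on the log2 scale (SE 0.145, edgeR adjusted p = 0.00588). Clec4a1 and Clec4a3 encode DCIR4 and DCIR3, relatives of the inhibitory dendritic cell immunoreceptor DCIR1 (Clec4a2). Clec4a1 had 16.0, 17.5 and 16.5 CPM in verapamil replicates 1, 2 and 3, against 88.3 and 72.8 CPM in control replicates 1 and 3. Treated values were tightly grouped and far under the controls. The log2 fold change was -2.27 (SE 0.124, edgeR adjusted p = 0.000437). Clec4a3 had 46.8, 45.8 and 49.1 CPM in verapamil replicates 1, 2 and 3, against 101.5 and 89.5 CPM in control replicates 1 and 3. It fell by 1.02 on the log2 scale (SE 0.103, edgeR adjusted p = 0.00156).

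**Figure D2:**
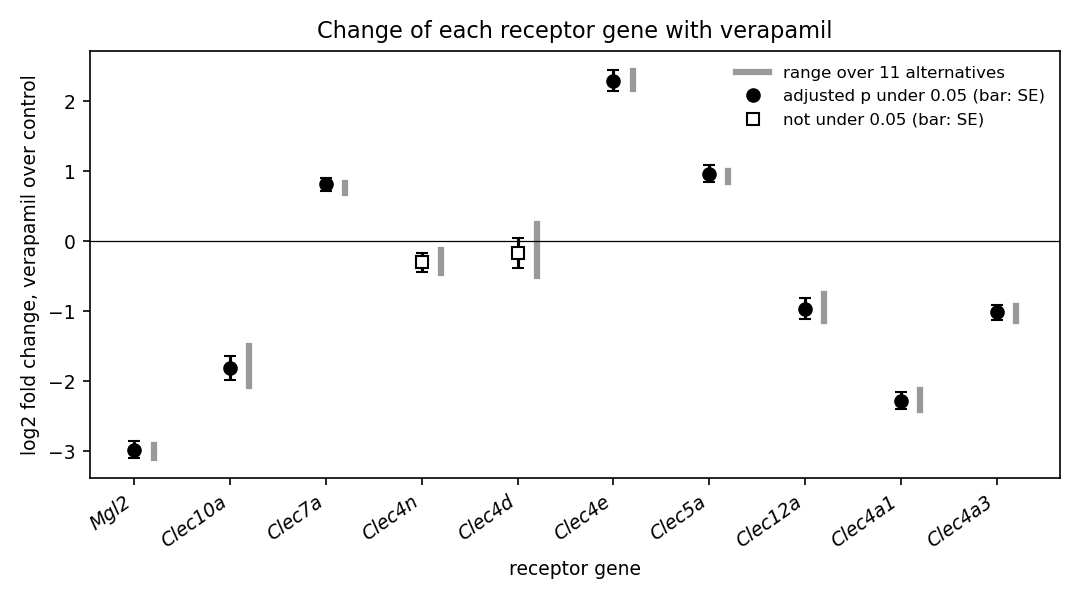
Log2 fold change (verapamil over control) of each receptor gene with its SE, filled where the adjusted p was under 0.05, beside a grey bar for the range over 11 alternative settings. The grey bars of the 8 filled genes stay on their side of 0, and that of Clec4d reaches from -0.49 to 0.25.

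Apart from Mgl2 and Clec10a, which lie on chromosome 11, the members lie on chromosome 6 (RefSeq positions, GRCm38). Clec4a1 (Entrez 269799) starts the Clec4 group at 122921848 and Clec4e (Entrez 56619) ends it at 123289871, with Clec4n (Entrez 56620) and Clec4d (Entrez 17474) next to Clec4e. Of 9 coding genes in this stretch 8 were tested, and 1 was higher, 4 were lower and 3 were not called, where 9.99% of all tested genes were higher and 15.4% lower. The 3 non-members tested were Clec4a2, the inhibitory DCIR1, with 36.8 ± 0.840 CPM in verapamil libraries (SD, n = 3) and 96.5 ± 16.3 CPM in control libraries (SD, n = 2; log2 -1.39, edgeR adjusted p = 0.0012), Clec4b1, which was near 1 CPM in controls (log2 -3.32, edgeR adjusted p = 0.0205), and Clec4a4, which did not pass (log2 -1.61, edgeR adjusted p = 0.131). These 3 were chosen after their values were seen. Clec4d and Clec4e, separated by 6520 bases and read from opposite strands, showed log2 fold changes of -0.17 and 2.29. In the Clec7a group, from Clec2d to Gabarapl1, Clec12a (129349783 to 129365303) and Clec7a (129461591 to 129472785) lie 96287 bases apart and moved in opposite directions. Gabarapl1, an autophagy gene at the edge of that group and chosen after its values were seen, had 331 ± 14.5 CPM in verapamil libraries (SD, n = 3) and 207 ± 6.52 CPM in control libraries (SD, n = 2; log2 0.67, edgeR adjusted p = 0.00458). Clec5a stands alone at 40574898 to 40585805. On chromosome 11, Mgl2 (70130125 to 70137542) and Clec10a (70166623 to 70170836) follow each other on the plus strand with 29080 bases between them. In the GENCODE M21 annotation none of the 10 members shares exon bases with another gene.

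**Figure D3:**
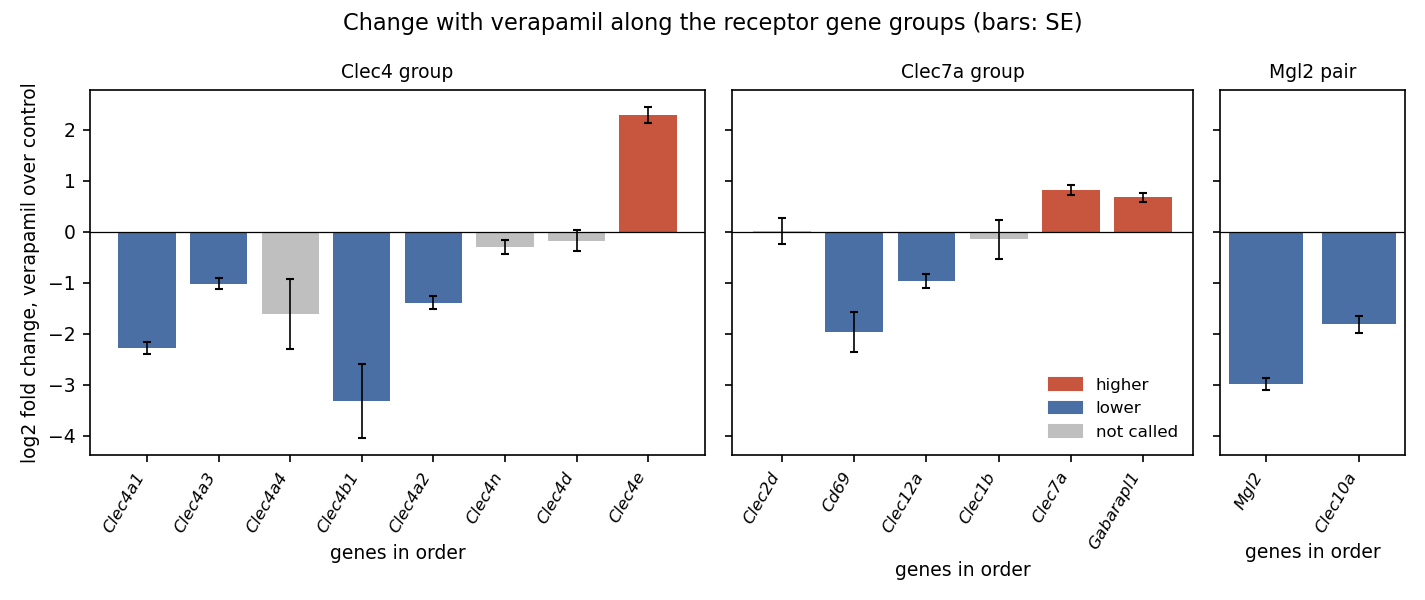
Log2 fold change with SE of tested coding genes in chromosomal order (left to right) in the Clec4 group, the Clec7a group and the Mgl2 pair, coloured by call. Within the Clec4 group 4 genes are lower, Clec4n and Clec4d are near 0 and Clec4e, at the end, is higher by 2.29.

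Promoter windows from 250 bases before to 50 bases after the start were available from RefSeq (GRCm38.p6) for 8 members. Some of these starts lie inside the gene positions given above. The Mgl2 window begins at 70130107, beside a gene start of 70130125, so nearly all of it, its GAGGAA included, lies inside the gene. The Clec12a window (129349994 to 129350293), counted below but not printed, lies wholly inside its gene. The windows of the neighbours Clec4d (chr6:123261857-123262156, plus strand) and Clec4e (chr6:123289822-123290121, minus strand), which are read toward each other, are printed. Printed with them are those of Clec7a (chr6:129472730-129473029, minus strand), Clec4a1 (chr6:122921598-122921897, plus strand) and Mgl2 (chr11:70130107-70130406, plus strand). Promoters of members that rose, fell and did not pass can thus be read side by side. Capitals mark GAGGAA, a core bound by the myeloid factor PU.1 and other ETS factors, on either strand (TTCCTC on the opposite one).
Clec4d: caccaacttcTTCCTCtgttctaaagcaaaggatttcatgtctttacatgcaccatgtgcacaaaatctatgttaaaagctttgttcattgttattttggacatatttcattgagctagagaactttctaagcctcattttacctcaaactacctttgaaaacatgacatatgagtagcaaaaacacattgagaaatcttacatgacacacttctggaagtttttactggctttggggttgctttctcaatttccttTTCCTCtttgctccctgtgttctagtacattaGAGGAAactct
Clec4e: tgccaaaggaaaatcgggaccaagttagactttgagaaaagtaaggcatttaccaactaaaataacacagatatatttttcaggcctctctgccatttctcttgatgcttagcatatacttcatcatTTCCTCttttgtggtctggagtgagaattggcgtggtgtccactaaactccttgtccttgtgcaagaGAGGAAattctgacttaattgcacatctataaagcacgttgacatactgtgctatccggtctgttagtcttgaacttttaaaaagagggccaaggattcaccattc
Clec7a: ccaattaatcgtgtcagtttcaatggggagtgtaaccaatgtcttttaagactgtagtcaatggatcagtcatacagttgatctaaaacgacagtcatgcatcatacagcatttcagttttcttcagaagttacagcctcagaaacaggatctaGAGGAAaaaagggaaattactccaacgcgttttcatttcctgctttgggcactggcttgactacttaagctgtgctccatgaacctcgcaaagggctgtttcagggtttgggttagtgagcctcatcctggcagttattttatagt
Clec4a1: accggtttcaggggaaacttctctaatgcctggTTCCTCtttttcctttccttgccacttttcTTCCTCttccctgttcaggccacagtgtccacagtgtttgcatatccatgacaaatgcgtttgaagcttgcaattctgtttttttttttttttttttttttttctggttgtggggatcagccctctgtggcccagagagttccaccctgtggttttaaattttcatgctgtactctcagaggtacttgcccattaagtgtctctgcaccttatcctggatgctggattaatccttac
Mgl2: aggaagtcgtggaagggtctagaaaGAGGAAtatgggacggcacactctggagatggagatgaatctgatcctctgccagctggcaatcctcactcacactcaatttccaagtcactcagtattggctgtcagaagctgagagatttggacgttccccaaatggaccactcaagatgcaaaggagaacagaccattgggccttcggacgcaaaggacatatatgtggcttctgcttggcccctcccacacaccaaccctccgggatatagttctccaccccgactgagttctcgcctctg
GAGGAA occurred in 9 of the 10 windows listed for the 8 members (Clec4a3 and Clec7a have 2 overlapping windows each), and in 28.3% of all 32851 windows of this length. It was present in the windows of members that rose, fell and did not pass, with 3 matches for Clec4d, 2 for Clec4e, 1 for Clec7a, 2 for Clec4a1 and 1 for Mgl2. Of the other patterns searched on both strands, TTNNGNAA (C/EBP type) was in 5 windows against 40.7% of all windows. The STAT6 type (TTC and GAA with 4 bases between) was in 4 against 6.95%. By member it was in 3 of 8, because the overlapping Clec7a windows hold the same STAT6-type match. Their GAGGAA match is likewise 1 site counted in 2 windows. The NF-κB type (GGG and CC with 5 bases between) was in 2 against 50.8%. TGANTCA (AP-1 type) and the IRF type (GAAA and GAAA with 2 bases between) were in 1 each, against 7.81% and 3.44%. CACGTG (MiT type) and TTCNNNGAA (STAT type) were in 0 of the 10, against 7.15% and 8.30%. In the Clec4d window the IRF-type match overlaps a match to GAGGAA. The patterns were chosen with the sequences in view, and a match describes letters, not a bound site.

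Per kilobase of annotated exon (the union of GENCODE isoforms, which need not be the isoforms made here), the order of levels differed between the groups. In verapamil libraries Clec4n had 394 ± 37.5, Clec4d 358 ± 25.5 and Clec7a 330 ± 16.6 CPM per kb (SD, n = 3), and neighbours in this order overlapped between libraries. In control libraries the same 3 genes had 484 ± 75.4, 402 ± 142 and 188 ± 3.23 CPM per kb (SD, n = 2), with Clec4n and Clec4d overlapping and Clec7a below both. Next came Clec4a3 in both groups, at 35.6 ± 1.28 CPM per kb with verapamil and 72.0 ± 6.36 CPM per kb in controls. Then in verapamil libraries came Clec12a at 22.7, Clec10a at 11.95, Clec5a at 11.1, Clec4a1 at 10.7, Clec4e at 9.20 and Mgl2 at 2.01 CPM per kb, of which Clec10a, Clec5a and Clec4a1 overlapped their neighbours. In control libraries came Clec4a1 at 51.7, Clec12a at 44.2, Clec10a at 41.9, Mgl2 at 15.8, Clec5a at 5.68 and Clec4e at 1.87 CPM per kb, of which Clec4a1, Clec12a and Clec10a overlapped. Mgl2 was thus lowest with verapamil and Clec4e lowest in controls.

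The summed level of the 10 members was 1209, 1097 and 1249 CPM per kb in verapamil replicates 1, 2 and 3, against 1483 and 1132 CPM per kb in control replicates 1 and 3. These sums overlapped between groups. Their make-up differed. Clec7a made up 27.9 ± 1.17% of the sum in verapamil libraries (SD, n = 3) and 14.6 ± 3.02% in control libraries (SD, n = 2). Clec10a made up 1.01 ± 0.0706% with verapamil and 3.18 ± 0.269% in controls, Clec4a1 0.906 ± 0.1% and 3.98 ± 0.215%. The share of Clec4d was 30.2 ± 0.458% with verapamil and 30.3 ± 5.12% in controls.

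**Figure D4:**
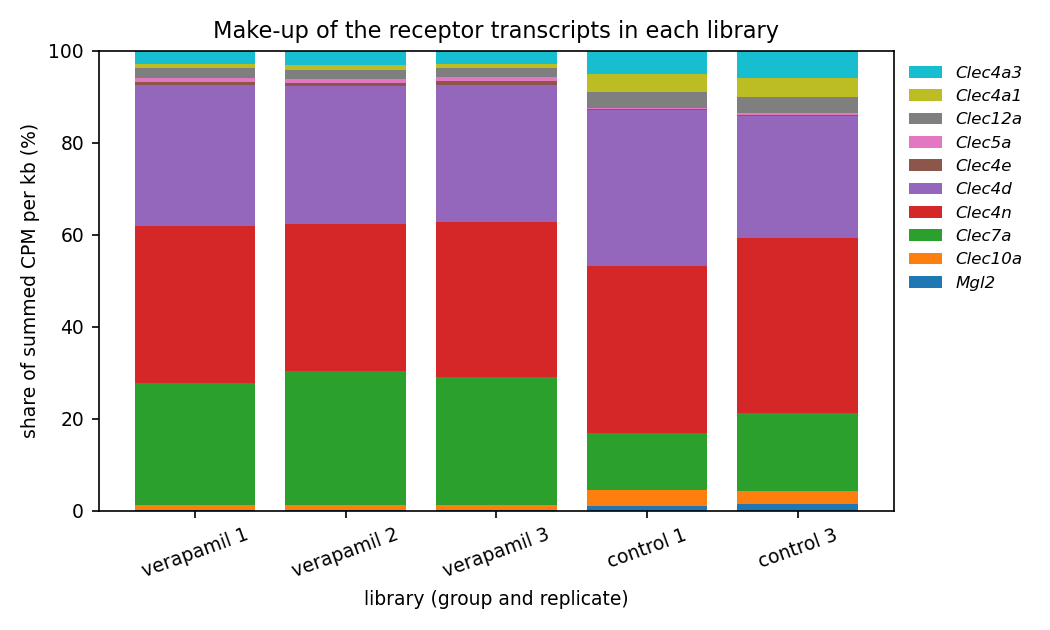
Share of each receptor gene in the summed CPM per kb of the 10 members (%), as stacked bars for each library, verapamil left of control. The Clec7a band is 26.7% to 29.0% high in verapamil libraries, against 12.5% and 16.8% in control libraries.

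Ratios of related members within a library do not depend on how libraries are scaled, and 6 were compared. The Clec4e to Clec4d ratio was 0.0781, 0.0787 and 0.0833 in verapamil replicates 1, 2 and 3, against 0.0106 and 0.0212 in control replicates 1 and 3, a mean difference of 2.41 on the log2 scale. For Clec4a1 to Clec4a3 the ratios were 0.344, 0.383 and 0.337 with verapamil, against 0.870 and 0.813 in controls (difference -1.25). The Mgl2 to Clec10a ratio was 0.113, 0.132 and 0.127 with verapamil, against 0.235 and 0.330 in controls (difference -1.17). For each of these 3 pairs the ratios of the verapamil libraries did not overlap those of the controls. Clec7a relative to Clec12a and to Clec4n was higher with verapamil in each library, by mean differences of 1.76 and 1.11, and Clec4n relative to Clec4e lower, by a difference of -2.58. Each of the 6 gave p = 0.1 in an exact two-sided permutation test (adjusted p = 0.1 over the 6), which is the smallest value that 3 against 2 libraries allow, so none could pass 0.05.

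**Figure D5:**
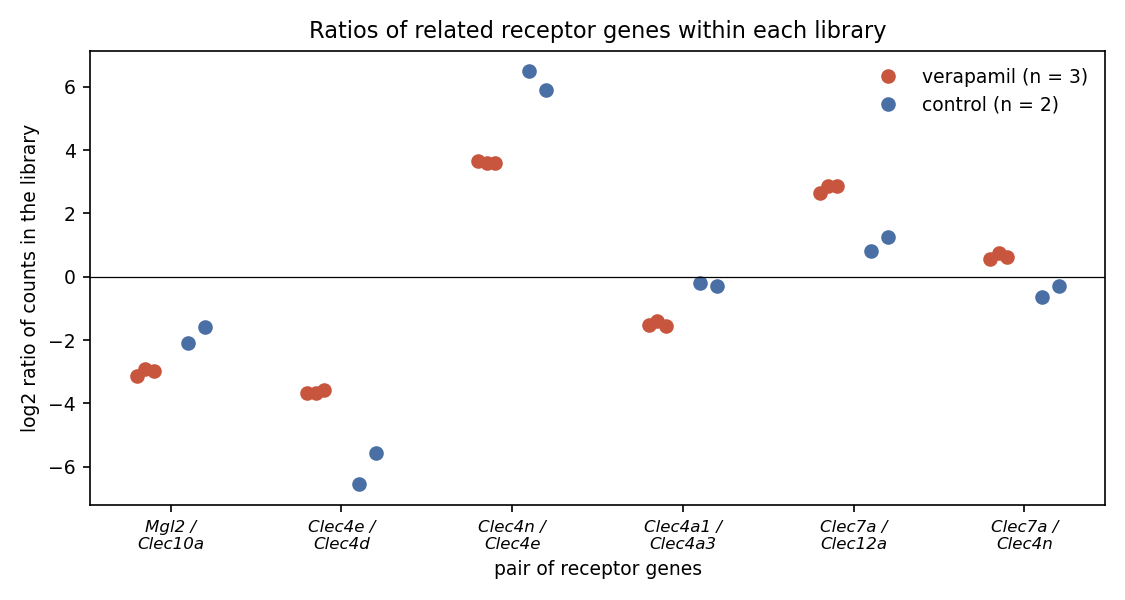
Log2 ratio of the counts of related receptor genes within each library, 1 point for each library, verapamil left of control. For each of the 6 pairs all verapamil points lie on 1 side of the control points, with mean differences from -2.58 (Clec4n over Clec4e) to 2.41 (Clec4e over Clec4d).

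Of 37 tested signalling genes 6 were higher and 4 lower, with a median log2 fold change of 0.10 (-0.01 with upper quartile factors), and this share of calls is close to the 25.4% of all tested genes. The adaptor genes named next were chosen after their values were seen. Fcer1g had 634, 561 and 600 CPM in verapamil replicates 1, 2 and 3, against 688 and 427 CPM in control replicates 1 and 3 (log2 0.10, edgeR adjusted p = 0.725). Tyrobp had 897, 799 and 945 CPM in verapamil replicates 1, 2 and 3, against 970 and 686 CPM in control replicates 1 and 3 (log2 0.09, edgeR adjusted p = 0.712). For both adaptors, as for Clec4d, the treated libraries lay between the controls. Syk (log2 0.39) and Card9 (log2 0.06), also chosen after their values were seen, did not pass (edgeR adjusted p = 0.112 and 0.792). Cblb, a ubiquitin ligase that targets Dectin-1 and Dectin-2 signalling, rose by 1.30 on the log2 scale (SE 0.176, edgeR adjusted p = 0.00403). Rasgrp3, a Ras activator, rose by 1.30 (SE 0.257, edgeR adjusted p = 0.0149). Map3k14, the kinase of the noncanonical NF-κB pathway, fell by 1.16 (SE 0.138, edgeR adjusted p = 0.00265). The adaptor Lat2 rose by 1.03 (SE 0.168, edgeR adjusted p = 0.00776). The count of calls in this list moved with the libraries used: leaving out control replicate 1 gave 17, control replicate 3 gave 24 and verapamil replicate 3 gave 6. Over all genes the same fits gave 4533, 7808 and 1460 calls, against 3200 with all libraries.

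Of 8 inhibitory signalling genes 0 were higher and 3 lower, beside 9.99% and 15.4% of all tested genes, and the 3 were Dok adaptors: Dok3 fell by 1.29, Dok2 by 0.83 and Dok1 by 0.37 on the log2 scale (edgeR adjusted p = 0.0042, 0.00497 and 0.0483). Ptpn6 and Ptpn11, chosen after their values were seen, did not pass (log2 -0.11 and 0.24, edgeR adjusted p = 0.393 and 0.389). Among 19 partner receptors 2 were higher and 4 lower (median 0.03), a share of calls not far from the 25.4% of all tested genes. Pilrb1, a DAP12-coupled receptor, fell by 3.14 and Fcgr1, the high-affinity Fc receptor, by 2.36 (edgeR adjusted p = 0.00457 and 0.000437). Oscar, an FcRγ-coupled receptor of osteoclasts, fell by 1.53 and Tspan6 by 1.43 (edgeR adjusted p = 0.000865 and 0.00381).

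Response genes are mainly those that Syk-Card9 signalling induces in macrophages and dendritic cells, and the list also holds Casp8 and Pycard. Too few counts left 7 genes of the list untested, the cytokine genes Il6, Il12b and Il23a among them. Of 16 tested 1 was higher and 7 were lower, beside 9.99% and 15.4% of all tested genes, with a median log2 fold change of -0.82. Il1b, an inflammatory cytokine, had 0.498 ± 0.252 CPM in verapamil libraries (SD, n = 3) and 2.28 ± 0.393 CPM in control libraries (SD, n = 2; log2 -2.18, edgeR adjusted p = 0.0103). Egr1, an immediate early factor, fell by 1.63, Il1rn, the interleukin-1 receptor antagonist, by 1.60 and Ptgs2, the inducible cyclooxygenase, by 1.60 (edgeR adjusted p = 0.000543, 0.00169 and 0.00335). Ccl3, a chemokine and the member that rose, was chosen after its values were seen (log2 1.45, edgeR adjusted p = 0.00658). Without verapamil replicate 1 the list had 5 called genes, against 8 with all libraries. Over all tested genes the same fit gave 1485 calls, against 3200.

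Among 24 tested C-type lectin domain genes outside the 10, 3 were higher and 9 lower, beside 9.99% and 15.4% of all tested genes, with a median log2 fold change of -0.71. Ly75 (DEC-205), an endocytic receptor, had 77.2, 101.0 and 89.8 CPM in verapamil replicates 1, 2 and 3, against 16.0 and 30.2 CPM in control replicates 1 and 3. All treated libraries were above both controls (log2 1.95, SE 0.287, edgeR adjusted p = 0.00542). Cd72, an inhibitory receptor, fell by 1.89 (SE 0.179, edgeR adjusted p = 0.00128). Clec11a, a secreted growth factor for bone, and Asgr2, a galactose-binding relative, were near or under 3 CPM in every group and fell by 2.35 and 1.76 (edgeR adjusted p = 0.0116 and 0.0332). Mrc1, the mannose receptor and chosen after its values were seen, had 462 ± 5.68 CPM in verapamil libraries and 428 ± 116 CPM in control libraries (log2 0.11, edgeR adjusted p = 0.641). Without verapamil replicate 3 this list had 7 calls, against 12 with all libraries, and all tested genes had 1460, against 3200.

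Libraries held 20202340 to 21494523 estimated counts, and control replicates 1 and 3 differed from each other more than any pair of verapamil libraries did (variance relative to counting noise 32.9, against 1.99 to 4.08). On this measure control replicate 3 was nearer to the verapamil libraries (17.2 to 17.6) than to control replicate 1, which gave 49.5 to 63.0 against them. By Pearson correlation of log2 CPM control replicate 3 was nearer to control replicate 1 (0.972) than to the verapamil libraries (0.962 to 0.963). The osteoclast label was checked against 13 markers, all of which were detected and tested; 2 were higher and 9 lower with verapamil. For this and each marker list below, the shares of all tested genes to set beside the counts are 9.99% higher and 15.4% lower. Acp5, the osteoclast acid phosphatase, had 562 ± 20.2 CPM in verapamil libraries (SD, n = 3) and 2028 ± 156 CPM in control libraries (SD, n = 2). The 2 higher markers, Atp6v0d2 and Clcn7, are named with their values already known. Atp6v0d2 had 1028 ± 16.9 CPM with verapamil and 522 ± 43.1 CPM in controls. Its log2 fold change was 0.98 (edgeR adjusted p = 0.00159), and that of Clcn7 was 0.52 (edgeR adjusted p = 0.029). Itgb3 and Nfatc1, named likewise, did not pass (log2 0.05 and -0.15, edgeR adjusted p = 0.838 and 0.449). The summed level of the 13 was 3767 to 3906 CPM in verapamil libraries, against 7358 and 8122 CPM in control libraries. Markers of other cells that express these receptors also differed. Of 18 tested macrophage markers 2 were higher and 10 lower (summed level 42539 to 46227 CPM with verapamil, against 31373 and 31569 CPM in controls, mostly Lyz2, chosen after its values were seen). Of 8 tested dendritic cell markers 0 were higher and 7 lower (12.5 to 15.0 CPM with verapamil, against 74.9 and 122.9 CPM in controls), the class II genes among them. The dendritic cell receptor Flt3, chosen after its values were seen, was near 0 in both groups (0.00920 CPM with verapamil and 0.0213 CPM in controls). Of 8 tested monocyte markers 0 were higher and 4 lower (381 to 502 CPM with verapamil, against 979 and 1410 CPM in controls, mostly Fn1). Neutrophil and granulocyte markers summed to 7.07 to 8.07 CPM with verapamil, against 13.8 and 17.4 CPM in controls (0 higher and 2 lower of 4 tested). Stromal markers were lower for 12 and higher for 0 of 14 tested (591 to 609 CPM with verapamil, against 1572 and 1770 CPM in controls). Lymphocyte and mast cell lists had 4 and 3 tested genes, of which 2 and 1 were higher and 0 and 2 lower. Lymphocyte markers, of which 6 of 12 listed had a row, summed to 647 to 684 CPM with verapamil, against 272 and 379 CPM in controls. These sums were mostly Cd4 and Il7r, the 2 higher genes, and the other 2 tested were not called. Mast cell and basophil markers, of which 5 of 8 listed had a row, summed to 4.62 to 5.59 CPM with verapamil, against 3.28 and 2.60 CPM in controls. With verapamil this sum was mostly Kit, the higher gene (4.70 ± 0.533 CPM, against 0.984 ± 0.0565 CPM in controls), and the other 2 tested genes were lower. The part of these lists in the receptor changes was not tested, and in bulk RNA fewer cells of a type and less RNA per cell cannot be told apart.

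The genes whose pattern over the 5 libraries was most like that of Mgl2, by Euclidean distance of centred log2 CPM among 9621 genes, were Oas2 (distance 0.169), Angptl4 (0.222) and Il21r (0.244). Oas2, an interferon-induced synthetase, had 3.37 ± 0.410 CPM in verapamil libraries (SD, n = 3) and 24.4 ± 0.787 CPM in control libraries (SD, n = 2). For Clec4e they were Vash2 (0.151), Mamdc2 (0.181) and Lss (0.210). Vash2 had 25.9 ± 0.913 CPM in verapamil libraries and 5.25 ± 0.490 CPM in control libraries. Among the members themselves Clec7a and Clec5a were closest (0.177), followed by Clec12a and Clec4a3 (0.236), and Mgl2 and Clec4e were farthest apart (5.76).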

How the data were processed

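RNA-seq counts of 5 libraries were analysed, 3 of verapamil and 2 of control osteoclasts. Control replicate 2 was not analysed here, so the test planned for 3 against 3 was run on these. Per the labels' protocols, RNA was extracted with Trizol and libraries were made with a SMARTER mRNA kit from 1.3 ug of total RNA. The deposited table holds estimated counts per gene with decimals and, judged from its values, no scaling by the authors. The genome build is GRCm38 (mm10), per the submitters' processing notes. Aligner, counter, annotation and strand use: not given in the sources used here.

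Counts were rounded. In R 4.3.3, edgeR 4.0.16 filtered genes (minimum count 10, minimum total 15), scaled libraries by TMM and tested verapamil against control by quasi-likelihood. The p-values were adjusted by Benjamini-Hochberg over 12619 genes and called under 0.05. Each SE was taken as the size of the log2 change over the square root of F. Ratios of members had 2 counts added to each. Alternatives were DESeq2 1.42.0, other scalings and filters, a replicate block and leaving out each library. Total counts were 20202340 to 21494523 per library.

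Members, lists, pairs and motifs were chosen with earlier results of these data known. Outside the marker lists, up to 4 called genes per list were named, by largest change and a mean of at least 1 CPM. From the marker lists only some of the genes that meet this rule were named. Named as most alike in pattern were the 3 genes nearest to the members with the largest fall and rise. These had a mean of at least 5 CPM, with a log2 prior count of 2. Others are said to have been chosen after their values were seen.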

Additional observations from a re-analysis of the deposited data

How the results depend on the processing

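The calls of Mgl2, Clec10a, Clec7a, Clec4e, Clec5a, Clec12a, Clec4a1 and Clec4a3 kept direction and side of the threshold under all 11 alternatives (DESeq2 size factors, upper quartile factors, no filter, a stricter filter, the DESeq2 Wald test, a replicate block and each library left out). Their weakest adjusted p was 0.0373, for Clec12a. Clec4d turned to 0.25 without control replicate 1 and was -0.49 without control replicate 3, and Clec4n was -0.45 without control replicate 3. Between 8 and 10 members were called when each library was left out. Over those same fits, the number of genes called ranged from 1460 (without verapamil replicate 3) to 7808 (without control replicate 3), that of other C-type lectin genes from 7 to 14, of signalling genes from 6 to 24 and of response genes from 5 to 10. Upper quartile factors gave a median log2 change of -0.13 over all genes (-0.01 with TMM) and 28.2% of calls higher (39.4% with TMM), with 3 members higher and 5 lower. Leaving out a verapamil replicate gave 30.1% to 32.1%, and leaving out control replicate 3 gave 51.0%.

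With the replicate number as a block 3317 genes and 8 members were called, against 3200 and 8 without it. Verapamil replicate 2 has no control of its number, so the block fit draws the change from replicates 1 and 3 alone. The labels do not say that a number marks a shared batch. Deviations of same-numbered libraries from their group means correlated at 0.289 (replicate 1) and 0.0224 (replicate 3), over 2 pairs. With 2 controls, the deviations of 1 are those of the other with the sign reversed. The 2 correlations are therefore not separate checks and cannot decide whether the numbers mark pairs. All 6 ratios kept their sign with 0.5 counts added and with each library left out. The 2 controls limit each result: a fit without 1 of them holds no spread between controls.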
